A study of Mus musculus with 192 samples.

Results

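The mature microRNAs (miRs) described here belong to the miR-297, miR-466, miR-467 and miR-669 families, most of whose hairpins lie in 1 intron of the mouse gene Sfmbt2. They were chosen by name: every mature miR whose name begins with 1 of these 4 family names followed by a letter or hyphen, and whose mean count over 32 small RNA libraries was above 10. Of 1978 mature miRs in the files, 80 met the name rule and 63 also met the count rule. These 63 are called the members below, and 740 miRs of any name met the count rule. The 63 comprised 6 miR-297, 28 miR-466, 9 miR-467 and 20 miR-669 names, with 29 named as 5p arms, 29 as 3p arms and 5 with no arm in the name. The weakest members were miR-466j with a mean count of 11.3 and miR-466i-5p with 11.8, and the first names left out were miR-467h with 8.59 and miR-669l-3p with 7.92.

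The cells were wild-type E14 mouse embryonic stem cells, an established line, kept in 2i medium with LIF, which holds them undifferentiated, and then differentiated in N2B27 medium with all-trans retinoic acid at 0.25 µM. Small RNA was sequenced in the undifferentiated cells (0 h) and after 6, 12 and 24 h and then 36, 48, 72 or 96 h of retinoic acid, with 4 replicates per time. A replicate number marks 1 differentiation run: runs 3, 5, 6 and 7 gave the libraries at 0 h and from 24 h on, and runs 4, 5, 6 and 7 those at 6 h and 12 h. Cytoplasmic and nuclear RNA came from runs 5, 6 and 7 at the same 8 times, with 24 libraries each, and total RNA from 16 further libraries. Those 16 include run 3 at 0, 12, 24, 36 and 48 h. They also include cells sorted at 96 h, in a library labelled XEN and a library labelled ECT. E14 cells were also transfected with a mimic or an inhibitor that the sample titles call miR-467e-5p, or with a scrambled control, with 3 libraries each. All cells came from 1 line, so the runs are replicate cultures and not separate animals.

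A miR is cut from a hairpin in a longer transcript, first in the nucleus by Drosha with Dgcr8 and then in the cytoplasm by Dicer1. Either arm of the hairpin (5p or 3p), or both, can be loaded onto an Argonaute protein to guide it to mRNAs that match the seed, bases 2 to 8 of the miR. A miR that lies in an intron can be made from the transcript of its host gene. Sfmbt2 encodes a Polycomb-group protein with MBT domains, and is known as an imprinted gene expressed from the paternal allele in extraembryonic tissues. Its intronic cluster is known in rodents and made of many copies of similar hairpins.

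On mouse build mm10 with the GENCODE annotation, 82 hairpins gave the 80 miRs that met the name rule, those below the count rule included, and of these 71 lay inside Sfmbt2 (chr2:10370510-10595253, plus strand), 10 lay elsewhere and 1 was not matched. The 71 hairpins filled 51.6 kb, chr2:10466663-10518279, on the strand of the gene, from 96.2 to 147.8 kb past the gene's annotated start. All 71 fell in a single intron (chr2:10461473-10523944), which is intron 10 of transcript ENSMUST00000041105.6 and intron 11 of ENSMUST00000116594.8, and no hairpin overlapped an exon. The other 5 of 7 annotated Sfmbt2 transcripts end before the cluster begins. The intron held 5 mir-297, 23 mir-466, 14 mir-467 and 29 mir-669 hairpins. A mir-467, a mir-466 and a mir-669 hairpin followed each other in this order 11 times, and the median distance from 1 hairpin to the next of its family was 2.45 kb for mir-467, 2.42 kb for mir-466 and 2.42 kb for mir-669. Of the 63 members, 50 came from hairpins in Sfmbt2 alone, 4 from hairpins elsewhere alone (miR-466i-3p, miR-466i-5p, miR-466j and miR-466k), and 9 had hairpins of both kinds or an unmatched one.

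**Figure D1:**
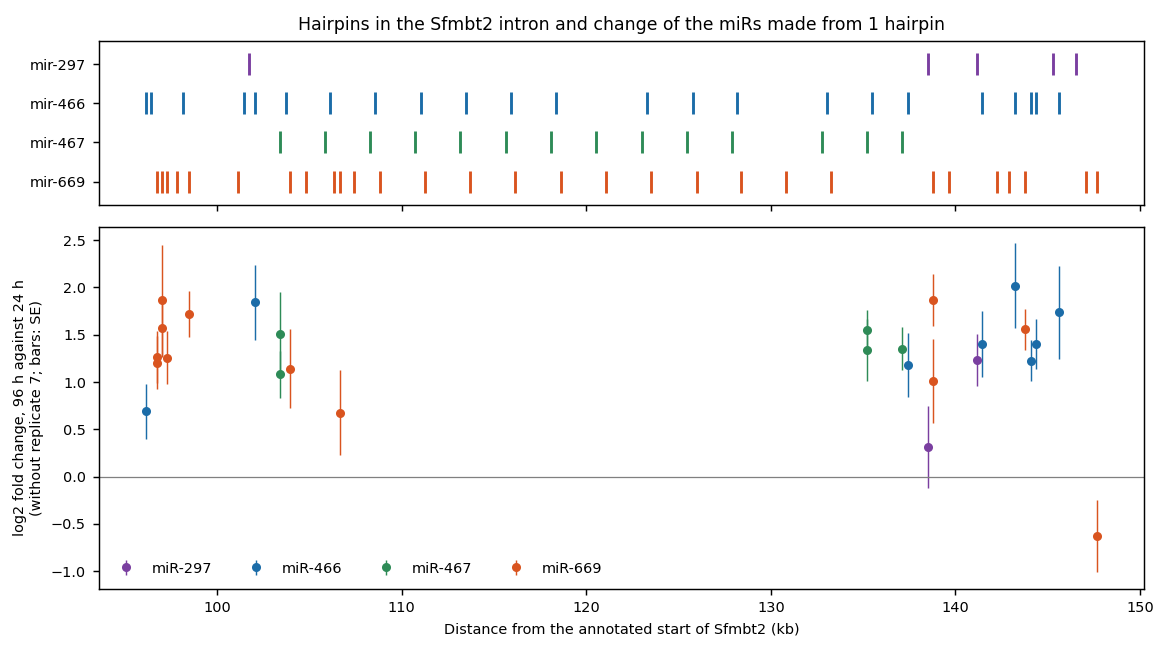
Position of the hairpins of the 80 miRs that met the name rule, those below the count rule included, in kb from the annotated start of Sfmbt2, 1 line per family (top), and the log2 fold change of 96 h against 24 h, replicate 7 left out, of the 27 miRs that come from a single hairpin in Sfmbt2 (bottom, with standard errors). The hairpins lie between 96.2 and 147.8 kb, and miR-669h-5p, from the last hairpin, is the point below 0.

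Of the 63 members, 3 had an entry in the RefSeq miR table (GRCm38.p6). They are printed as the members whose sequence was at hand, each with a run of alternating bases, and all 3 come from hairpins outside Sfmbt2. Capitals mark the seed.
miR-466i-3p: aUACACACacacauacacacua
miR-466j: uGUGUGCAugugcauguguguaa
miR-466k: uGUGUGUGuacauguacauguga
They lie at chr13:17747552-17747573, chr10:60960802-60960824 and chr3:85467396-85467418, all on the plus strand. The 3 seeds differ from one another, so these miRs form no shared-seed group. Members from the Sfmbt2 intron are described by name and position.

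Many members share reads. Over the 32 libraries, 20 of the 63 names fell into 9 sets whose counts were equal within 0.5 counts in every library, which left 52 distinct profiles, and a difference between names of 1 such set cannot be read from these data. miR-467a-5p and miR-467b-5p, for example, had 105, 108, 88.5 and 136 CPM (the count divided by the TMM-adjusted total of its library) and 105, 108, 88.3 and 136 CPM in the 4 libraries at 0 h. The count used for each miR is the highest over its hairpins. By that count miR-669c-5p led with a mean count of 7714, followed by miR-467c-5p with 2507 and miR-467e-5p with 1876, each from 1 hairpin. When the counts of all hairpins of a name were added up, miR-467a-5p and miR-467b-5p came first and miR-669c-5p was the third. miR-467a-5p and miR-467b-5p then had mean counts of 8969 and 8969 in place of 815 and 815. Each is listed under 11 hairpins, and the deposited counts divide reads that match several hairpins among them. The highest count of such a name therefore holds only part of its reads. The order of the members by level therefore depends on how reads of repeated hairpins are counted.

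The libraries of replicate 7 stood apart from 6 h on. Their TMM normalisation factors (edgeR's scaling for composition) were 0.291 to 0.517, against 0.704 to 2.30 in the other 21 libraries of those times, they held 562 to 983 detected miRs against 1006 to 1266, and a single miR took 37.0 to 51.1% of their counts against 5.39 to 38.2%. The 0 h library of replicate 7 did not stand apart in this way: its factor of 1.14 lay among the other 0 h libraries, and it was the deepest and held 1267 detected miRs. Results are given with and without replicate 7 for this reason, and its part in each result was not tested. Depth ran from 1046533 to 16869744 counts per small RNA library. The share of all counts held by miR-290 to miR-295, the stem cell miR cluster, was 40.2 to 50.5% at 0 h and 5.27 to 12.2% at 96 h, and the TMM factors of replicates 3, 5 and 6 were 1.03 to 1.36 at 0 h and 2.12 to 2.30 at 96 h. Their part in the changes below was not tested. In these bulk samples a change in the number of cells of a type and a change in the RNA per cell cannot be told apart.

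After 24 h of retinoic acid the members were lower than in undifferentiated cells, and by 96 h most were back at or above the 0 h level. Added over all members except miR-669c-5p, the level was 3384, 2912, 2629 and 2782 CPM at 0 h in replicates 3, 5, 6 and 7, the order used throughout. It was 2787, 1688, 1410 and 1079 CPM at 24 h and 4944, 3904, 3995 and 4862 CPM at 96 h. Each run was lower at 24 h than at 0 h, the 2 times overlapped through replicate 3, and every 96 h value lay above every value of both earlier times. For each name these sums take the count of its highest hairpin. Names that share reads thus add the same value again, and reads divided among several hairpins enter only in part.

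**Figure D2:**
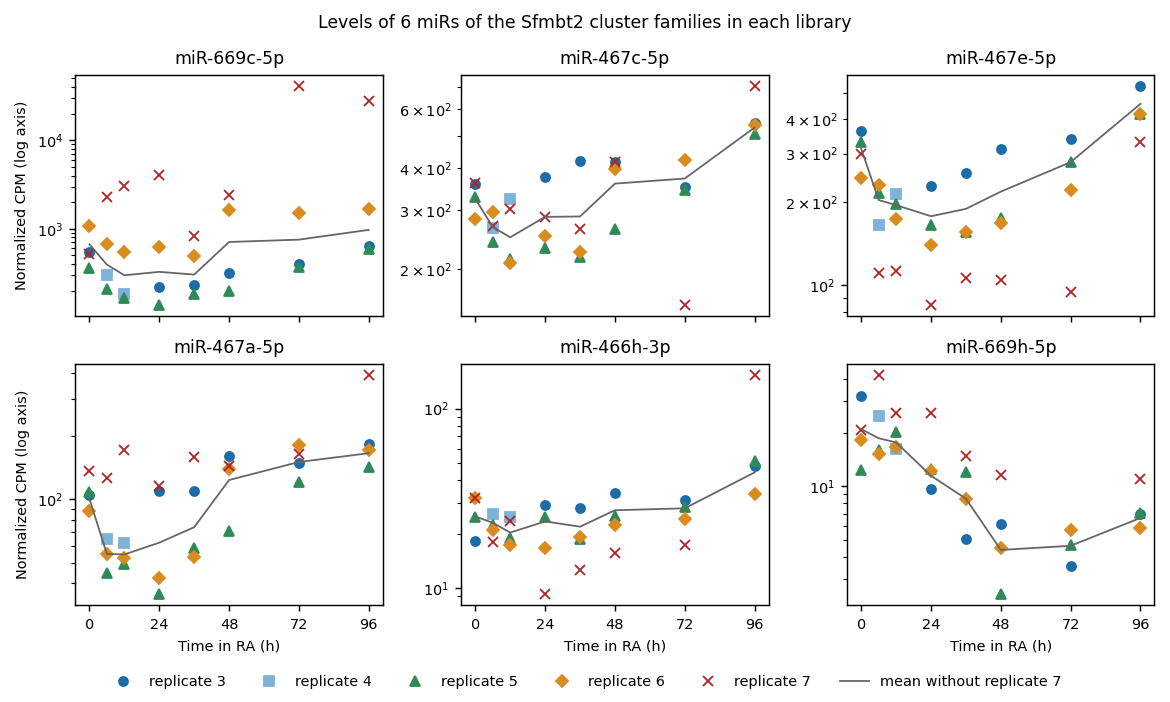
CPM (log axis) of 6 members at the 8 times in hours of retinoic acid, 1 marker shape per replicate. The grey line is the mean without replicate 7, and the replicate 7 points of miR-669c-5p rise to 41590 CPM at 72 h and 27844 CPM at 96 h.

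At 24 h, 26 of 63 members (41.3%) were lower than at 0 h at an adjusted p under 0.05 in edgeR's quasi-likelihood test with the run as a block, against 12.8% of all 740 miRs tested. None was higher in edgeR's test, against 9.05% of all miRs, with 0 at an unadjusted p under 0.05 and 0 in DESeq2. The median log2 fold change of the members was -1.12, against -0.18 over all 740, and 62 of 63 were negative against 56.8% of all miRs. In 9 members all 24 h libraries lay below all 0 h libraries, against 5% of all miRs, and in 12 without replicate 7, against 9.05%. Without replicate 7, 13 members (20.6%) were lower against 5.54% of all miRs, with a median of -0.77 against -0.07, and again 62 of 63 were negative. The number of calls rested on single runs: 3 members were called without replicate 5, and 0 without replicate 6, where 37 still had an unadjusted p under 0.05. Here and below, names that share reads are counted separately, so several calls repeat the same reads. Among the 26 this holds for miR-297a-3p, miR-297b-3p and miR-297c-3p, and for miR-467a-3p and miR-467d-3p. It also holds for miR-466b-3p, miR-466c-3p and miR-466p-3p, among others.

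The members at the top of the level order showed this fall to different extents. miR-467e-5p, the miR named in the titles of the transfected samples, was at 362, 330, 245 and 300 CPM at 0 h and 228, 165, 139 and 84.3 CPM at 24 h, so that every 24 h library lay below every 0 h library. Its log2 fold change was -1.12 ± 0.26 (SE, n = 4, edgeR adjusted p = 0.0090), and -0.87 ± 0.21 (adjusted p = 0.015) without replicate 7. The call was lost without replicate 5 or without replicate 6. miR-669o-5p was at 213, 133, 124 and 145 CPM at 0 h and 103, 63.5, 68.1 and 70.4 CPM at 24 h, again with no overlap. Its log2 fold change was -1.01 ± 0.25 (adjusted p = 0.011), and -1.04 ± 0.21 (adjusted p = 0.0064) without replicate 7.

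miR-669l-5p fell from 206, 124, 117 and 109 CPM to 152.2, 61.9, 67.2 and 43.9 CPM, a log2 fold change of -0.86 ± 0.28 (edgeR adjusted p = 0.033), and -0.77 ± 0.24 (adjusted p = 0.048) without replicate 7. Replicate 3 was the highest library at both times, and its 24 h value overlapped the 0 h values of the other runs. miR-466g fell from 171, 115, 128 and 140 CPM to 93.9, 70.8, 56.9 and 30.6 CPM with no overlap, a log2 fold change of -1.11 ± 0.38 (adjusted p = 0.041), and -0.93 ± 0.22 (adjusted p = 0.011) without replicate 7. The calls of miR-669o-5p and miR-669l-5p at 24 h were lost without replicate 5 or 6, and that of miR-466g without replicate 3, 5 or 6.

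miR-669c-5p was the member most at odds between runs. It stood at 552, 365, 1086 and 520 CPM at 0 h and at 222, 136, 620 and 4105 CPM at 24 h, so replicates 3, 5 and 6 were lower at 24 h and replicate 7 was higher. The log2 fold change at 24 h was -0.73 ± 0.65 (edgeR adjusted p = 0.42) with all runs and -1.23 ± 0.27 (adjusted p = 0.0085) without replicate 7. miR-467c-5p, the second member by level, was at 359, 330, 283 and 362 CPM at 0 h and 377, 232, 251 and 286 CPM at 24 h, with overlapping groups and a log2 fold change of -0.24 ± 0.28 (adjusted p = 0.55).

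For the rest of the leading members the 24 h values were lower without passing the test. miR-466f-3p had 272, 174, 166 and 153 CPM at 0 h and 174, 157, 79.9 and 29.4 CPM at 24 h, with a log2 fold change of -0.94 ± 0.42 (edgeR adjusted p = 0.10). miR-466d-3p had 90.7, 145, 119 and 101 CPM and then 135.4, 71.6, 43.3 and 15.0 CPM, with a log2 fold change of -1.26 ± 0.47 (adjusted p = 0.054). In miR-466d-3p replicate 3 was higher at 24 h and the other runs were lower. miR-467a-5p, with the same reads as miR-467b-5p, had 105, 108, 88.5 and 136 CPM and then 109, 35.3, 42.4 and 115 CPM, with a log2 fold change of -0.71 ± 0.32 (adjusted p = 0.097).

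**Figure D3:**
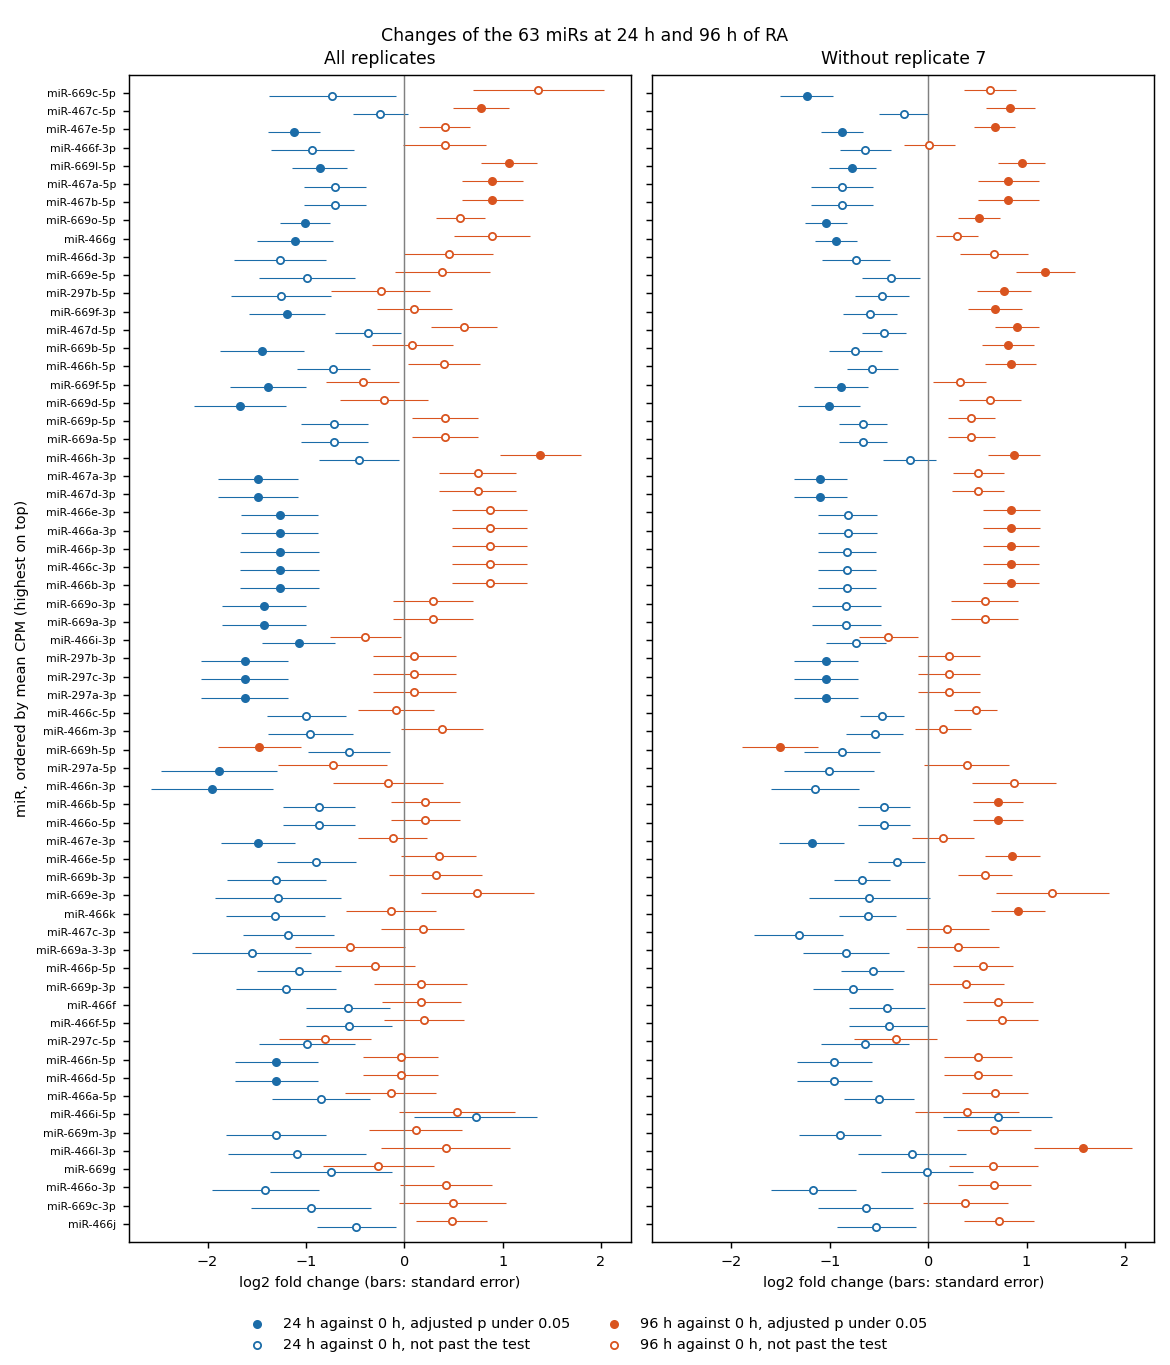
Log2 fold change (with standard error) of the 63 members at 24 h and at 96 h against 0 h, with all replicates on the left and without replicate 7 on the right; filled points have an adjusted p under 0.05. At 24 h 62 of 63 points lie below 0 on both sides, and at 96 h the number of filled points above 0 is 5 on the left and 23 on the right.

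At 48 h, 23 members (36.5%) were lower than at 0 h against 20.7% of all miRs, and 1 (miR-466i-5p) was higher against 19.3%. The median was -0.91, against -0.21 over all miRs. Without replicate 7, 12 members (19.0%) were lower against 13.6% of all miRs and miR-466i-5p was higher, with a median of -0.41 against -0.04. The count of lower members was 11 without replicate 5 and 2 without replicate 6. miR-466f-3p, at 155, 126, 54.6 and 50.8 CPM at 48 h, was among the members that fell, by 1.09 ± 0.42 on the log2 scale (edgeR adjusted p = 0.040), and by 0.92 ± 0.26 (adjusted p = 0.0095) without replicate 7. That call was lost without replicate 3 (adjusted p = 0.073), 5 (0.082) or 6 (0.21), without the replicate block (0.26) and, at 0.051 to 0.074, under DESeq2, its size factors, a mean count above 50 and sums over precursors. miR-466i-5p was a low miR with 0.750, 0.476, 1.68 and 1.92 CPM at 0 h and 0.879, 1.23, 8.65 and 4.24 CPM at 48 h. It was higher at 48 h in every run, by 1.64 ± 0.59 on the log2 scale (adjusted p = 0.029), and by 1.62 ± 0.52 (adjusted p = 0.020) without replicate 7, with overlapping groups. The call was lost under DESeq2 (adjusted p = 0.064), with DESeq2's size factors (0.065), with scaling to the library total (0.22), with no filter (0.10), without the replicate block (0.31) and without replicate 5 (0.11) or 6 (0.29). Its only hairpins lie outside Sfmbt2.

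At 96 h against 0 h, 5 members (7.94%) were higher against 17.6% of all miRs, and 1 (miR-669h-5p) was lower against 26.5%. The members' median was 0.32, against -0.21 over all miRs. Without replicate 7, 23 members (36.5%) were higher against 25.4% of all miRs and miR-669h-5p was lower against 23.8%, with a median of 0.66 against 0.13. The 5 calls were miR-467c-5p, miR-669l-5p, miR-467a-5p, miR-467b-5p and miR-466h-3p, so 2 of them rest on the same reads. Leaving out replicate 6 left 2 higher members.

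miR-669l-5p stood at 301, 219, 245 and 324 CPM at 96 h, above every 0 h library, with a log2 fold change of 1.06 ± 0.28 (edgeR adjusted p = 0.0030), and 0.95 ± 0.24 (adjusted p = 0.0030) without replicate 7. miR-467c-5p stood at 544, 505, 537 and 705 CPM, also above every 0 h library, with a log2 fold change of 0.78 ± 0.28 (adjusted p = 0.025), and 0.83 ± 0.25 (adjusted p = 0.0099) without replicate 7. The call for miR-467c-5p was lost without replicate 5 (adjusted p = 0.074) or replicate 6 (adjusted p = 0.13). miR-467a-5p stood at 183, 142, 172 and 393 CPM, all above the 0 h libraries, with a log2 fold change of 0.90 ± 0.31 (adjusted p = 0.021), lost without replicate 6 (adjusted p = 0.089).

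miR-466h-3p was at 18.4, 24.9, 31.99 and 31.8 CPM at 0 h and 47.8, 51.1, 33.5 and 155 CPM at 96 h. The 2 times did not overlap, and the log2 fold change was 1.38 ± 0.41 (edgeR adjusted p = 0.0074), or 0.87 ± 0.26 (adjusted p = 0.011) without replicate 7. miR-669h-5p, from the hairpin at the far end of the cluster, went the other way. It was at 32.2, 12.4, 18.2 and 20.6 CPM at 0 h, at 6.15, 2.46, 4.51 and 11.5 CPM at 48 h and at 6.99, 7.08, 5.79 and 10.95 CPM at 96 h. Its log2 fold change was -1.90 ± 0.44 (adjusted p = 0.0012) at 48 h and -1.47 ± 0.42 (adjusted p = 0.0057) at 96 h, where it was -1.51 ± 0.38 (adjusted p = 0.0035) without replicate 7. The 96 h call was lost without replicate 3 (adjusted p = 0.073) or replicate 6 (adjusted p = 0.061), and with scaling to the library total (log2 fold change -1.07, adjusted p = 0.075).

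Other leading members were not called at 96 h against 0 h with all runs. miR-669c-5p was at 647, 588, 1681 and 27844 CPM, higher than at 0 h in each run, with a log2 fold change of 1.36 ± 0.67 (edgeR adjusted p = 0.10), or 0.63 ± 0.27 (adjusted p = 0.059) without replicate 7. miR-467e-5p was at 530, 418, 416 and 331 CPM, with a log2 fold change of 0.41 ± 0.26 (adjusted p = 0.21), or 0.67 ± 0.21 (adjusted p = 0.013) without replicate 7. miR-466f-3p was at 201, 190, 159 and 357 CPM, with overlapping groups and a log2 fold change of 0.41 ± 0.42 (adjusted p = 0.46), or 0.01 ± 0.26 (adjusted p = 0.97) without replicate 7. miR-669o-5p had a log2 fold change of 0.57 ± 0.25 (adjusted p = 0.068), miR-466g of 0.89 ± 0.39 (adjusted p = 0.064) and miR-466d-3p of 0.45 ± 0.45 (adjusted p = 0.46).

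The members were also compared between 24 h and 96 h. Of 63 members, 48 (76.2%) were higher at 96 h than at 24 h, against 21.6% of all miRs. None was lower in edgeR's test, with 1 at an unadjusted p under 0.05 and 1 called by DESeq2, against 23.9% of all miRs. The members' median was 1.37, against -0.04 over all miRs. Without replicate 7, 56 members (88.9%) were higher against 28.1% of all miRs, with a median of 1.34 against 0.17, and the count was 27 without replicate 5 and 24 without replicate 6. In 27 members all 4 libraries at 96 h lay above all 4 at 24 h, against 13.5% of all miRs, and in 51 without replicate 7, against 26.5%. The sole negative fold changes were those of miR-669h-5p and miR-466i-5p. This contrast was added after the data had been seen. Over the 8 times together, 43 members (68.3%) differed between any times, against 55.1% of all miRs, and 54 (85.7%) against 61.1% without replicate 7. That count was 23 without replicate 5 and 21 without replicate 6.

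From 24 h to 96 h miR-669l-5p rose by a log2 fold change of 1.93 ± 0.29, miR-669o-5p by 1.58 ± 0.26 and miR-467e-5p by 1.53 ± 0.26, and all 3 passed the test also without replicate 7. For miR-669c-5p the rise was 2.09 ± 0.66 (edgeR adjusted p = 0.011) with all runs and 1.86 ± 0.27 (adjusted p = 1.7e-05) without replicate 7. The rise of miR-466g was 2.00 ± 0.40 with all runs and 1.22 ± 0.22 without replicate 7, in which its 96 h level was 595 CPM against 138 to 175 CPM in the others.

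All 4 families had negative medians at 24 h against 0 h and positive medians from 24 h to 96 h. The median log2 fold change at 24 h against 0 h was -1.62 for the 6 miR-297, -1.07 for the 28 miR-466, -1.12 for the 9 miR-467 and -1.20 for the 20 miR-669 members. From 24 h to 96 h it was 1.44, 1.26, 1.53 and 1.43 in the same order. Higher were 3 of 6, 20 of 28, 9 of 9 and 16 of 20 members, against 21.6% of all miRs. At 96 h against 0 h the medians were -0.071, 0.39, 0.75 and 0.29. Of the 5 higher members 3 were miR-467 names, among them miR-467a-5p and miR-467b-5p, which share reads. Without replicate 7, 25.4% of all miRs were higher at 96 h than at 0 h. In the families these were 1 of 6 miR-297, 12 of 28 miR-466, 5 of 9 miR-467 and 5 of 20 miR-669 members. From 24 h to 96 h these numbers were 5, 25, 9 and 17 without replicate 7, against 28.1% of all miRs. By place of the hairpin, 41 of the 50 members from Sfmbt2 alone, 5 of the 9 with hairpins of both kinds or an unmatched one and 2 of the 4 from elsewhere alone were higher at 96 h than at 24 h, with medians of 1.40, 2.13 and 0.82. Names that share reads enter these counts and medians separately. The 3 higher miR-297 members are miR-297a-3p, miR-297b-3p and miR-297c-3p, which share reads, and the median of -1.62 is their value. The 5 of 9 are miR-466a-3p and miR-466e-3p, which share reads, and miR-466b-3p, miR-466c-3p and miR-466p-3p, which also do. Differences between families or places were not tested.

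For 25 names both arms were counted among the mature miRs. By the highest count, the 5p arm had more counts than the 3p arm in all 32 libraries for 7 names, the 3p arm had more in all 32 for another 7, and the remaining 11 were mixed. With counts added over precursors these numbers were 7, 9 and 9, and the ratio at 0 h turned from 2.07 to -1.51 for miR-669o, from 1.57 to -0.43 for miR-297b and from 0.74 to -2.72 for miR-467d, so for such names the leading arm depends on how reads of repeated hairpins are counted. miR-669c had a log2 ratio of 5p to 3p of 8.16 ± 0.80 (SD, n = 4) at 0 h, and miR-467e of 4.66 ± 0.59, by either count. miR-466f was the reverse at -5.70 ± 0.72. From 0 h to 96 h the ratio by the highest count moved the same way in all 4 runs for 4 names only. It rose for miR-467c and fell for miR-669f, miR-466c and miR-297c. With counts added over precursors, 2 names rose and 3 fell in all 4 runs. miR-467c went from 5.50 ± 0.52 to 6.08 ± 0.39 (SD, n = 4). With 4 runs an exact sign-flip test cannot go below 1 in 8, which is also how often 4 random signs agree, so no p is given.

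**Figure D4:**
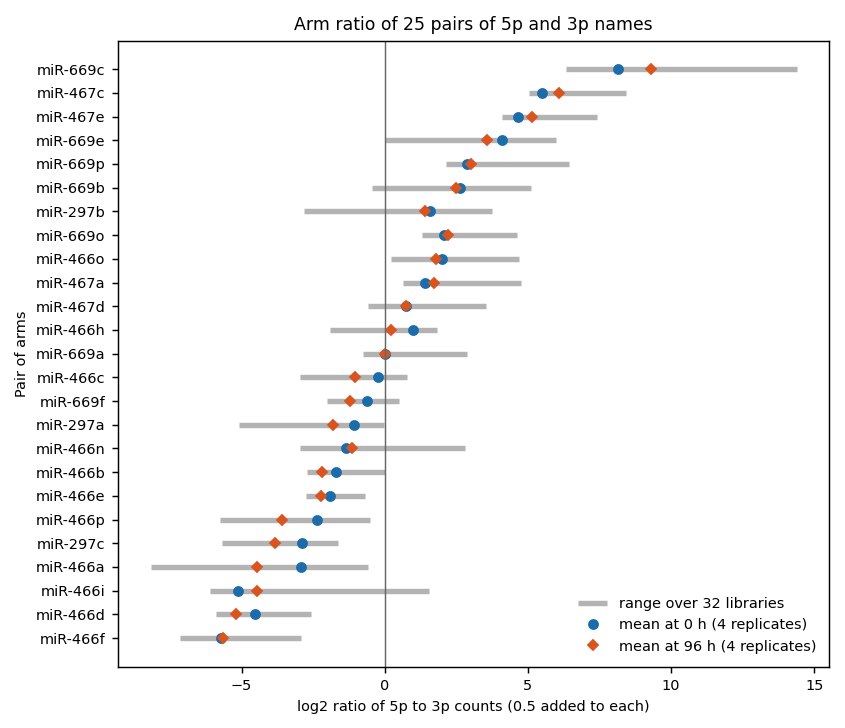
Log2 ratio of 5p to 3p counts of the 25 names with both arms, mean at 0 h and at 96 h, with the range over all 32 libraries as a line. Points right of 0 have more 5p counts, and the ratio lies on 1 side of 0 in all libraries for 14 of the 25 names.

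The host mRNA was measured in the cytoplasm and the nucleus of runs 5, 6 and 7. Cytoplasmic Sfmbt2 was at 48.3, 46.3 and 48.9 CPM at 0 h, at 15.3, 18.9 and 19.0 CPM at 12 h, and at 69.1, 74.8 and 88.7 CPM at 96 h. Groups did not overlap, and the lowest level was at 12 h. The log2 fold change was -1.43 ± 0.14 (SE, n = 3, edgeR adjusted p = 3.6e-08) at 12 h and 0.69 ± 0.13 (adjusted p = 8.9e-05) at 96 h, where 33.9% of 11676 genes were higher and at 12 h 19% were lower. At 6 h it was already -1.14 ± 0.14, at 24 h -1.14 ± 0.14 and at 48 h -0.65 ± 0.14, all past the test, at times when 18.5%, 24.2% and 30% of genes were lower. At 72 h it was -0.26 ± 0.13 (adjusted p = 0.094).

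Nuclear Sfmbt2 followed the same course: 59.6, 45.7 and 56.5 CPM at 0 h, 18.2, 13.9 and 16.5 CPM at 12 h, and 77.8, 62.6 and 90.6 CPM at 96 h. Its log2 fold change was -1.73 ± 0.17 (edgeR adjusted p = 4.2e-08) at 12 h and 0.52 ± 0.16 (adjusted p = 0.0081) at 96 h, where 13.5% of genes were lower and 28.5% higher, respectively. The 96 h call was lost without replicate 7, with a log2 fold change of 0.43 (adjusted p = 0.098). Nuclear minus cytoplasmic Sfmbt2 over the 8 times was -0.01 ± 0.06 on the log2 scale (adjusted p = 0.96), and the change from 0 h to 96 h differed between fractions by -0.23 ± 0.23 (adjusted p = 0.91). These tests did not find a difference between the fractions. The paper raises the possibility that its separation was incomplete, with cytoplasmic RNA left among the nuclear RNA. The nuclear values may therefore not be a separate measurement. The libraries were made with a stranded mRNA kit and the values are 1 count per gene, so spliced and unspliced Sfmbt2 RNA were not measured apart.

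Set beside the host, the members fell and recovered in runs of the same number, with minima later than 12 h in runs 5, 6 and 7. In run 5 the median change of the members from 0 h on the log2 scale was -0.64 at 6 h, -0.79 at 12 h, -0.75 at 24 h, -0.94 at 36 h, -0.61 at 48 h, -0.22 at 72 h and 0.35 at 96 h. Cytoplasmic Sfmbt2 in run 5 changed by -1.36, -1.66, -1.08, -0.82, -0.59, -0.39 and 0.52 at the same times. In run 6 the members' median was lowest at 24 h (-0.95) and reached 0.54 at 96 h, and Sfmbt2 was lowest at 12 h (-1.30) and reached 0.69. In run 7, with the libraries that stand apart, the members' median ran from -1.49 to -2.36 between 6 h and 72 h and reached 0.15 at 96 h, and Sfmbt2 was lowest at 12 h (-1.36) and reached 0.86. Run 3, which has no fraction libraries, had members' medians of -0.23 at 24 h, 0.03 at 48 h and 0.55 at 96 h, a weaker fall. Total RNA of replicate number 3 had Sfmbt2 at 38.5, 32.3, 39.1 and 45.3 CPM at 0, 12, 24 and 48 h. With 3 runs that hold both small RNA and fraction libraries, this is a description of side-by-side values.

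**Figure D5:**
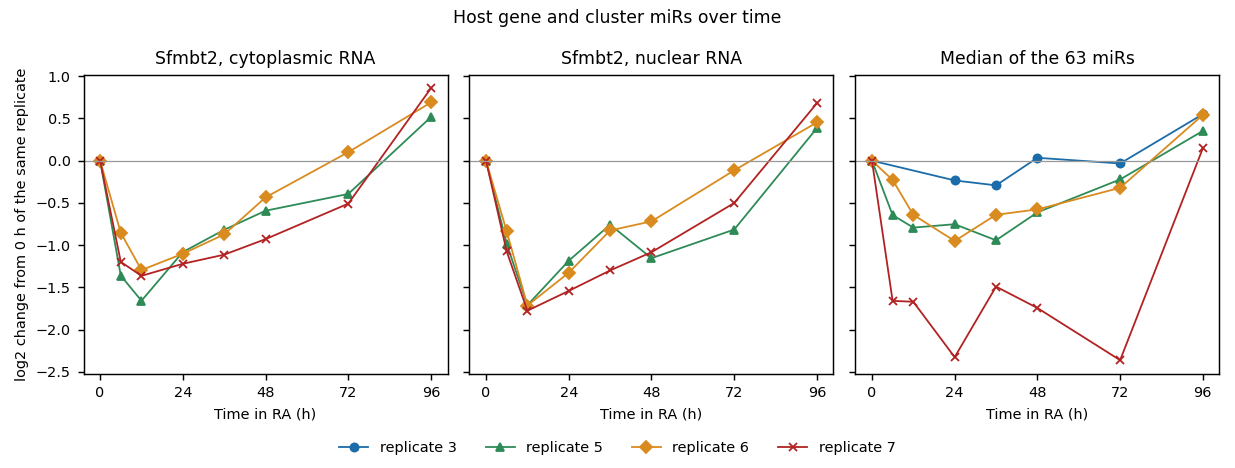
Log2 change from 0 h by hour of retinoic acid, for Sfmbt2 in cytoplasmic RNA and in nuclear RNA (runs 5, 6 and 7) and for the median of the 63 members (runs 3, 5, 6 and 7). Sfmbt2 is lowest at 12 h in all 3 runs, and all lines end above 0 at 96 h.

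In total RNA, with mostly 1 library per time and no test, Sfmbt2 stood at 8.93 and 17.7 CPM at 0 h in the 2 single-end runs, 10.0 at 6 h, 9.21 at 24 h, 18.8 at 36 h, 18.3 at 48 h, 40.0 at 72 h, and 45.7 and 74.1 CPM at 96 h. The 36 h and 48 h libraries of run 1 were nearly equal, with a correlation over genes of 0.9986 where the next highest pair had 0.9915. The single-end values at 6 h and 24 h lay between those at 0 h, and no single-end library was taken at 12 h. The paired-end run 3 had 38.5, 32.3, 39.1, 43.4 and 45.3 CPM at 0, 12, 24, 36 and 48 h, a much smaller dip than in the fractions. The early fall of Sfmbt2 in the fractions was thus small in run 3 and not clear in the single-end libraries. Levels cannot be set across the 2 read types. The library labelled XEN (extraembryonic-endoderm-like) sorted at 96 h had 63.3 CPM Sfmbt2 and that labelled ECT (ectoderm-like) 17.5 CPM. Pdgfra, a marker of the first, was at 678 and 224 CPM, and Cd24a, a marker of the second, at 19.0 and 706 CPM. The labels contradict each other on which surface markers define the sorted cells; Pdgfra was higher in the library labelled XEN and Cd24a in that labelled ECT.

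Genes that process or bind miRs did not move in 1 direction. Of 13 listed genes, 12 passed the filter in cytoplasmic RNA, and at 96 h against 0 h 4 rose and 2 fell, against 33.9% higher and 35.6% lower among all genes, with a median of -0.02 on the log2 scale against -0.02 over all genes. Prkra, a partner of Dicer1, rose by 1.86 ± 0.14 and Dicer1 by 0.97 ± 0.08, and the Argonaute Ago2 fell by 0.72 ± 0.10 on the log2 scale. Of 9 genes of the MBT family of Sfmbt2, 5 were tested, of which 3 rose and 2 fell: L3mbtl3 rose by 1.63 ± 0.14 and Scmh1 by 0.89 ± 0.12, and L3mbtl2 fell by 1.19 ± 0.06.

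Lists of cell type markers also changed between 0 h and 96 h, which does not show that each of these types was present. No list of ectoderm markers was compared. In cytoplasmic RNA 33.9% of all genes were higher and 35.6% lower at 96 h than at 0 h, the shares to set beside the counts that follow. Pluripotency markers fell in 6 of 6, from a summed 5854 to 6041 CPM at 0 h to 257 to 341 CPM at 96 h. Extraembryonic endoderm markers rose in all 9 tested of 10, from 225 to 243 CPM to 10690 to 16848 CPM. Of 10 trophoblast markers 4 passed the filter, of which 2 rose and 2 fell, with sums of 163 to 166 CPM at 0 h and 28.5 to 31.0 CPM at 96 h. Gata3 rose by 4.56 ± 0.45, and Tfap2c and Cdx2 fell by 4.52 ± 0.16 and 3.59 ± 0.48 on the log2 scale. Fibroblast markers rose in 4 of 4 tested of 6, with sums of 3.30 to 4.93 and 199 to 236 CPM. Their part in the changes of the members and of Sfmbt2 was not tested.

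The mimic and the inhibitor were given to E14 cells in 2i medium with serum, the mimic at 100 nM for 24 h and the inhibitor for 48 h. The paper's transfection methods describe fixing the collected cells and point to flow cytometry. They do not say whether the cells for RNA were fixed. The titles name miR-467e-5p, and the library names give miR-467a-5p, so which was used is not settled here. Eif4h, a translation initiation factor and the proposed target, was at 179, 158 and 212 CPM with the mimic and at 371, 311 and 314 CPM with the scrambled mimic, with no overlap. Its log2 fold change was -0.86 ± 0.13 (SE, n = 3, edgeR adjusted p = 0.32 over 12395 genes). The same difference was past the threshold under DESeq2 (adjusted p = 2.1e-05), without a filter (adjusted p = 1.2e-06) and with the batch as a block (adjusted p = 0.021). Sfmbt2 was at 19.4, 20.8 and 19.2 CPM with the mimic and 27.2, 20.5 and 26.7 CPM with the control, a log2 fold change of -0.33 ± 0.16 (adjusted p = 0.93). With the inhibitor, Eif4h was at 355, 372 and 340 CPM against 376, 397 and 379 CPM, a log2 fold change of -0.11 ± 0.10 (adjusted p = 1.0), and Sfmbt2 at 54.1, 31.6 and 49.7 CPM against 46.4, 33.0 and 47.7 CPM, a log2 fold change of 0.09 ± 0.21 (adjusted p = 1.0), whose sign turned when 1 library was left out. edgeR called 0 of 12395 genes with the mimic (0%), where 674 had an unadjusted p under 0.05 and DESeq2 called 53, and 0 of 12997 with the inhibitor (0%), with 227 and 2 in the same order. With the batch as a block edgeR called 49 and 1.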

How the data were processed

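The authors trimmed the small RNA reads with Trimmomatic (0.38), merged read pairs with PEAR and counted them per mature miR and precursor with miRDeep2 on Bowtie (1.0.0-1); the deposited read counts are expected counts, because reads that match several hairpins were divided among them. For the other libraries the deposited gene tables hold expected counts made with RSEM (1.2.28 or 1.3.1) per the labels, on GRCm38. All were rounded to whole numbers here. The count of a miR was the highest over its precursors. Depth was 1046533 to 16869744 counts per library in small RNA, 9119521 to 21652601 in cytoplasmic, 6860451 to 30624948 in nuclear, 12608577 to 36284956 in total RNA, 9367551 to 19956830 in the mimic and 8714647 to 23843575 in the inhibitor libraries.

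Features with a mean count above 10 (20 in the transfections) were tested with edgeR 4.0.16 in R 4.3.3 (TMM, quasi-likelihood F test, Benjamini-Hochberg over all features tested), with time and, for the time courses, the replicate number as a block. The labels tie numbers to differentiation runs. Deviations from the time means correlated with a median of 0.699 over 100 pairs of small RNA libraries with the same number and -0.112 over pairs with different numbers, and with 0.0751 and 0.0806 for same numbers in cytoplasmic and nuclear RNA. CPM values are TMM-scaled. Scripts were tested on simulated data. Alternatives were DESeq2 1.42.0, other scalings and filters, sums over precursors, no block and leaving out each replicate.

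The members and gene lists were chosen with earlier results of these data known. Named miRs were the 10 with the highest mean CPM, those past the test at 96 h against 0 h with a mean count of at least 50 and the same direction in all runs (up to 5 per direction), those named in the mimic labels and any that went against most members, and, of each gene list, at most 3 with the largest change. Samples were grouped by their labels. miR sequences came from RefSeq (GRCm38.p6), and 3 of 63 members matched. The mimic and inhibitor labels and library names differ (miR-467e-5p and miR-467a-5p).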

Additional observations from a re-analysis of the deposited data

Results flagged for a closer look

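In the 13 named members and the sum over all members but miR-669c-5p, 112 groups of 4 replicates were checked for a value far from the other 3 (Dixon's test), and 17 (15.2%) held one; chance flags about 1 in 20 groups. Of these, 12 were in replicate 7, the run whose libraries stood apart, and 5 in other runs. The groups share libraries and reads, so they are not independent.

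miR-669c-5p in replicate 7 lay far above the other runs at 12 h (3041 CPM, next 551), 24 h (4105, next 620), 72 h (41590, next 1496) and 96 h (27844, next 1681). miR-467a-5p and miR-467b-5p, which share reads, were both high in replicate 7 at 12 h (172 CPM, next 62.3) and 96 h (393 CPM, next 183). miR-466g and miR-466h-3p were high in replicate 7 at 96 h, at 595 CPM (next 175) and 155 CPM (next 51.1). miR-466i-5p was high in replicate 7 at 36 h (5.48 CPM, next 1.37) and 72 h (21.2 CPM, next 2.27).

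miR-669l-5p was high in replicate 3 at 0 h (206 CPM, next 124), 36 h (151 CPM, next 81.7) and 48 h (197 CPM, next 102). miR-466g was high in replicate 3 at 36 h (97.4 CPM, next 59.8). miR-467c-5p was low in replicate 5 at 48 h (263 CPM, next 398).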

How the results depend on the processing

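Of 561 alternative values, 453 kept their direction and their side of the threshold, or stayed within 1.5 times for counts. Counts of members lower at 24 h (26) were 46 with DESeq2, 51 with scaling to the library total, where the median of all miRs was -0.94 and of the members -2.04, and 0 without the replicate block (8 at an unadjusted p under 0.05); leaving out single replicates gave 0 to 27. At 48 h (23) they were 37 with the library total and 1 without the replicate block, and 2 to 24 leaving out replicates. Members higher at 96 h (5) were 14 with DESeq2, 2 with no filter, 16 with a mean count above 50, 13 with sums over precursors and 1 without the replicate block, and 2 to 23 leaving out replicates. For 96 h against 24 h (48) the count was 17 without the replicate block and 24 to 56 leaving out replicates, and over time (43) it was 9 and 21 to 54. The causes were not tested. Without the replicate block miR-669c-5p at 24 h turned to 1.01, and with the library total miR-466i-5p at 24 h turned to -0.084.

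Sfmbt2 in nuclear RNA at 96 h was 0.43 to 0.59 leaving out replicates and lost its call without replicate 7. Nuclear against cytoplasmic Sfmbt2 was -0.10 to 0.10, positive without replicate 6. Eif4h with the mimic was -0.86 under DESeq2, with no filter and with the replicate block, each past the threshold. Sfmbt2 with the inhibitor was -0.061 to 0.30 leaving out libraries, negative without inhibitor replicate 1 (-0.04) or scrambled replicate 2 (-0.061). The block changed no other call of the host. The part of depth in the calls of low members was not tested.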
